A study of Mus musculus with 3 samples.

Results

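The Rb1 locus described here is a 1 Mb window of mouse chromosome 14, from 73 to 74 Mb of genome build mm9, in which many HA-NUR77 peaks lay close together. NUR77, encoded by Nr4a1, is an orphan nuclear receptor of the NR4A family, a group of transcription factors. Its binding was profiled by chromatin immunoprecipitation sequencing (ChIP-seq) in 1 group of 3 replicates of RAW264.7, an established mouse macrophage line that carried the doxycycline-inducible construct pINDUCER20b-HA-NUR77. Each replicate came from 6 dishes of 15 cm that were given 1 µg/mL doxycycline for 18 hours, and an anti-HA antibody was used for the precipitation. All 3 samples thus hold overexpressed, tagged NUR77, and neither uninduced nor untagged cells, nor another antibody, were analysed here. Input reads re-used from other studies, which the design text names as controls, were not used here either. Every peak below is a call in induced cells, and its level without induction was not measured in these samples.

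The members are the peaks of the 3 replicate lists, and the regions of the authors' deposited table of intervals found in at least 2 of 3 replicates, whose centre lies in the window. Touching intervals of that table were joined into regions. Replicate 1 had 26 of its 6777 peaks there, replicate 2 had 65 of 37307 and replicate 3 had 35 of 8862, together 126 peaks, and 31 of 9800 regions. It was picked as 1 of the windows with the most regions, so the number of regions, the number of peaks and the closeness of neighbours are a description of what was picked, and no test was applied to them. The labels call each replicate a separate set of dishes and do not say whether the replicates were made on separate days. The lists give no read counts, so the sequencing depth is unknown, and a place without a peak is not shown to be unbound.

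The window is described as holding Rb1, Rcbtb2, Itm2b and Cysltr2. Rb1 encodes the retinoblastoma protein, a tumour suppressor that binds E2F transcription factors and restrains entry into the DNA synthesis phase of the cell cycle. Rcbtb2 encodes a protein with RCC1 and BTB domains. Itm2b encodes BRI2, a membrane protein whose human mutations cause familial dementias. Cysltr2 encodes a receptor for cysteinyl leukotrienes, lipid mediators that myeloid cells make. In the RefSeq gene table, which is of build GRCm38, all 4 were found, and their order along the chromosome was Cysltr2, Rcbtb2, Rb1 and Itm2b. Within the span of Rb1, that table placed the lysophosphatidic acid receptor gene Lpar6 and the microRNA gene Mir687. It also listed the long noncoding RNA gene Gm35388 after Cysltr2 and Gm52109 after Rcbtb2. The peak coordinates are of another build than this table. For that reason no peak below is assigned to a gene, a promoter, an exon or an intron, and the presence of the 4 genes in the mm9 window was not checked here.

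NR4A receptors bind DNA as monomers at a short element called the NBRE, and as dimers at paired elements, and in macrophages their genes are induced rapidly by inflammatory signals. Transcription factor sites in macrophage chromatin often occur in groups spread over a wide stretch around a gene. Whether the peaks of this window contain NR4A sites was not examined, since no mm9 sequence was used here.

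The regions formed a group with few others around it. The first region began at position 73003965 and the last ended at 73810268, and the centres spanned 806 kb. The nearest region before the first lay 572 kb away, and the nearest region after the last lay 1323 kb away, against a median distance of 53.9 kb between neighbouring regions on chromosome 14. Of the 352 such distances on the chromosome, 48 were at least as long as the one before the group and 21 at least as long as the one after it. The Mb before the window held 1 region and the Mb after it held 0. In the individual lists, the Mb before held 2, 5 and 0 peaks of replicates 1, 2 and 3, and the Mb after held 0, 3 and 0. The window carried 8.78% of the 353 regions of chromosome 14.

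**Figure D1:**
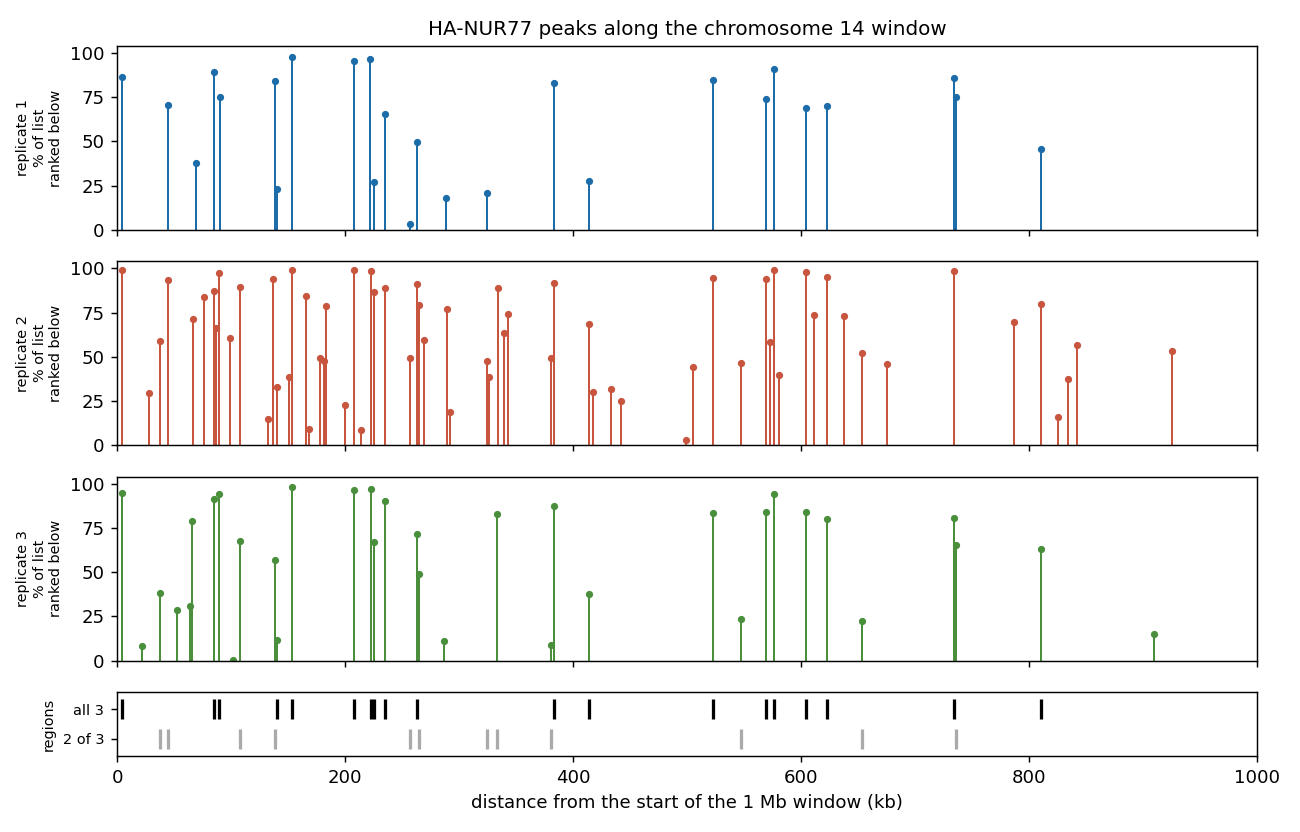
Peaks of replicates 1, 2 and 3 (upper panels) and the regions of at least 2 replicates (lowest panel) by distance from the start of the window in kb. The height of a stem is the share of the replicate's own list that ranked below the peak. The stems at 153, 208 and 222 kb are the 3 tallest in replicates 1 and 3, and in replicate 2 they rank 335, 335 and 654 of the list, and the last region is centred at 810 kb.

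Near the start of the window, the first peaks inside were those of the first region, centred 4.19 kb from the border, which scored 105, 959 and 218 in replicates 1, 2 and 3. The peaks just outside that border scored 28.3 in replicate 1, at 8.58 kb, and 39.8 in replicate 2, at 2.28 kb, and the next peak of replicate 3 lay 1496 kb away. At the other border, the last peaks inside scored 41.9, 84.8 and 28.3 in replicates 1, 2 and 3, at 190, 75.1 and 90.3 kb from it. The next peaks outside scored 35.1, 81.2 and 40.2, at 1306, 87.8 and 1133 kb. The start of the window therefore fell just before a strong region, and its end fell in a stretch with few peaks.

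Peaks were unevenly spread within the window. The first 300 kb held 15, 33 and 20 peaks of replicates 1, 2 and 3, which is 57.7%, 50.8% and 57.1% of each replicate's peaks there, and 16 of the 31 regions. From 300 to 500 kb there were 3, 12 and 4 peaks and 5 regions. A second accumulation lay between 500 and 800 kb, with 7, 15 and 9 peaks and 9 regions. The last 200 kb held 1, 5 and 2 peaks and 1 region. The most crowded 100 kb stretch ran from 200 to 300 kb, with 7 regions, of which 5 were covered by all 3 replicates. The widest empty interval between neighbouring regions was 108 kb, between the regions centred 414 and 523 kb from the start.

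**Figure D2:**
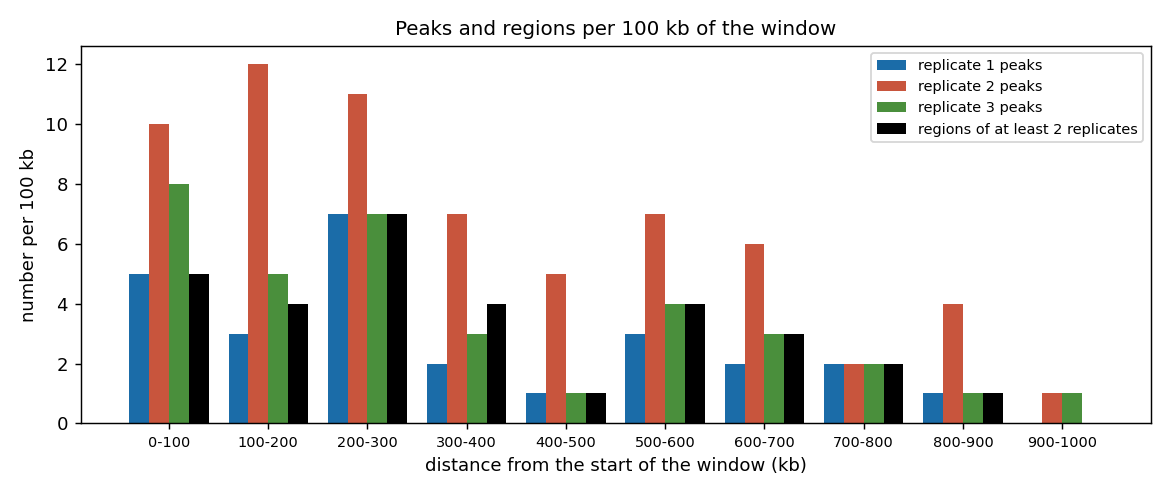
Number of peaks of each replicate and of regions with at least 2 replicates in each 100 kb of the window, by distance from its start. Counts in the shorter lists of replicates 1 and 3 reach 7 and 8 in the first 300 kb and 3 and 4 in the second accumulation from 500 kb on.

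Most regions were covered by all 3 replicates. The count was 19 of 31 (61.3%), against a background of 47.8% of the 9800 regions of the genome. Of the other 12 regions, 7 were held by replicates 2 and 3, 3 by replicates 1 and 2, and 2 by replicates 1 and 3. Over the genome these combinations made up 34.8%, 15.7% and 1.77% of regions. Widths ranged between 102 and 600 bp over the 31 regions, which together covered 12.6 kb. The median width was 446 bp over all 31, 454 bp for the 19 regions of all 3 replicates and 324 bp for the other 12. No region held more than 1 peak of any list. The choice of a window rich in regions of at least 2 replicates favours places where lists overlap, so the share of 61.3% is not independent of that choice.

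The strongest place in the window was the region at chr14:73152765-73153364, 600 bp wide and 153 kb from the start. Its peak scored 263 in replicate 1 (rank 140 of 6777), 959 in replicate 2 (rank 335 of 37307) and 350 in replicate 3 (rank 160 of 8862). It was the best-scored peak of the window in replicates 1 and 3. In replicate 2 it had the score 958.844, as did 3 other peaks of the window and 549 peaks of the whole list in all, which therefore share rank 335. Scores are the authors' values on an unstated scale and serve here only for ranking peaks within a list.

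Next in mean rank came a pair of regions about 14 kb apart. The region at chr14:73221969-73222514 scored 215, 929 and 274 in replicates 1, 2 and 3 (ranks 222, 654 and 288). The region at chr14:73207765-73208268 scored 187, 959 and 268 (ranks 303, 335 and 308). With the region at 153 kb, they occupied the first 3 places among the window's peaks in replicates 1 and 3. All 3 lie within the best-ranked 5% of every list.

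The remaining 7 of the 10 best-ranked regions were spread from the first to the eighth 100 kb. The region at chr14:73575419-73575964 scored 129, 959 and 201 (ranks 609, 335 and 528), and was the strongest of the second accumulation. The region at chr14:73003965-73004418, the first of the window, ranked 938, 335 and 447. The region at chr14:73084569-73085068 scored 119, 295 and 167 (ranks 709, 4695 and 780). It was the sole one of these 10 that stood lower in its replicate 2 list, in the top 12.6%, than in those of replicates 1 and 3, where it was in the top 10.5% and 8.80%. Its neighbour 4.80 kb on, at chr14:73089365-73089866, scored 74.47, 807 and 202 (ranks 1671, 884 and 527), so the order of this pair differed between replicate 1 and the other 2 lists. The regions at chr14:73733565-73734068, chr14:73522315-73522814 and chr14:73383165-73383614 completed the 10. Their ranks were 968 to 1166.5 in replicate 1, 611 to 3072 in replicate 2 and 1145 to 1728 in replicate 3.

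Regions of all 3 replicates also included weak peaks. The weakest of the 19, at chr14:73140269-73140564, scored 30.7, 51.3 and 26.9, which placed it in the top 76.6%, 67.1% and 88.3% of the 3 lists. The region at chr14:73414015-73414414 ranked in the top 72.2%, 31.4% and 62.6%, and that at chr14:73225315-73225718 in the top 72.9%, 13.3% and 33.2%. Presence in all 3 lists thus extended over most of the ranks of replicates 1 and 3, from the top 2.07% to 76.6% and from the top 1.81% to 88.3%.

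**Figure D3:**
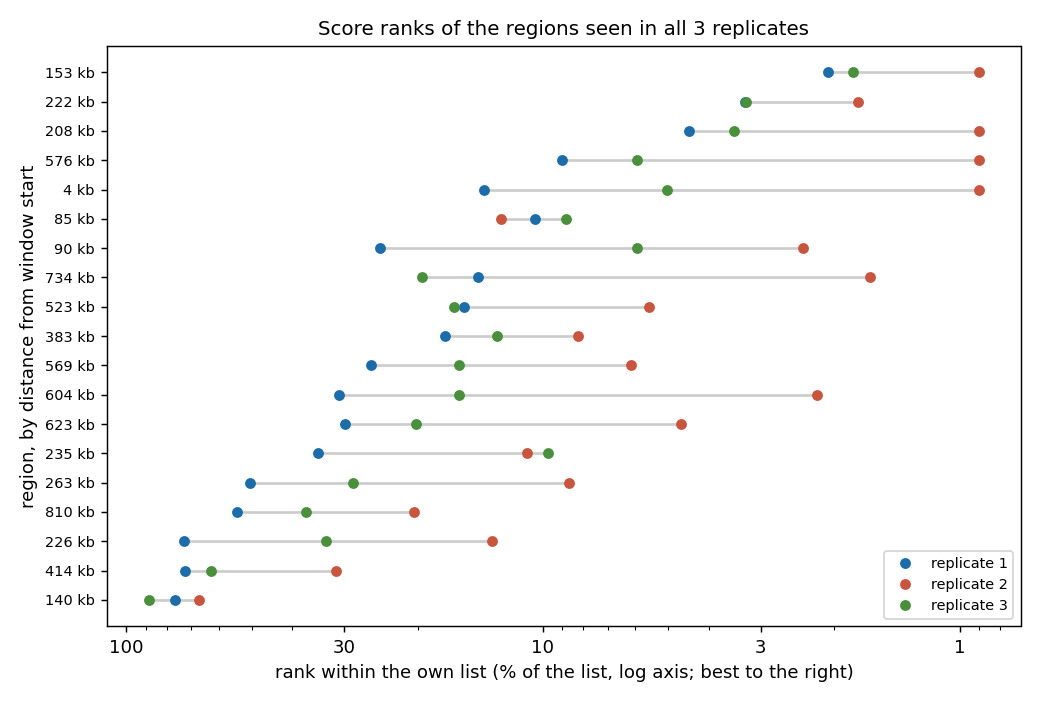
Rank of each of the 19 regions of all 3 replicates within the replicate's own list, as a percentage of the list on a log axis with the best ranks at the right. Regions are named by their distance from the window start and sorted by mean rank, from 1.59% at 153 kb to 77.3% at 140 kb. Replicate 2 points are mostly furthest to the right, and 4 of them share the tie at 0.898%.

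The lists ranked these 19 regions alike. Spearman's rho of the scores was 0.82 between replicates 1 and 2, 0.87 between replicates 1 and 3, and 0.77 between replicates 2 and 3. The same measure over the 4681 regions of all 3 replicates in the genome was 0.67, 0.79 and 0.72. These are descriptions across neighbouring regions of the same libraries, which are not independent of each other. Peak centres of the 19 regions differed by a median of 48 bp between replicates 1 and 2, 46 bp between 1 and 3, and 27 bp between 2 and 3, and by at most 277 bp.

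As a group, the 19 regions had better median ranks than the regions of all 3 replicates over the whole genome. Their median rank was in the top 24.7%, 5.55% and 15.9% of the lists of replicates 1, 2 and 3. Over the genome's 4681 such regions it was in the top 39.7%, 8.62% and 33.9%. All 3 replicates shifted the same way, most in replicate 3, and since the lists also picked the window this was given no test. Counting all window peaks, the median rank was in the top 27.6%, 33.7% and 32.5% of the lists of replicates 1, 2 and 3, a mean of 31.3% ± 3.24 (SD, n = 3), where a whole list has 50.0%. Among the best-ranked 10% of their list were 4 of the 26 peaks of replicate 1 (15.4%, against a background of 9.99%), 15 of the 65 of replicate 2 (23.1%, against 10.0%) and 8 of the 35 of replicate 3 (22.9%, against 10.0%).

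Scores covered a wide range in every replicate. Replicate 1 peaks ran from 23.6 to 263 (median 69.2), replicate 2 peaks from 23.7 to 959 (median 123) and replicate 3 peaks from 22.3 to 350 (median 72.9). The medians of the whole lists were 44.7, 78.0 and 50.4. Higher-scored peaks were wider, with a Spearman's rho of score and width of 0.72, 0.75 and 0.75 over the window's 26, 65 and 35 peaks. Over the whole lists it was 0.64, 0.78 and 0.61. Median widths were 375, 500 and 400 bp in the window, against 350, 500 and 350 bp in the lists.

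Replicate 2, which has the longest list, exceeded the others less in the window than over the genome. The ratio of its peak number to that of replicate 1 was 2.50 in the window and 5.50 over the whole lists, and to that of replicate 3 it was 1.86 in the window and 4.21 over the lists. Of the lists of replicates 1, 2 and 3, the window took 0.384%, 0.174% and 0.395%, a mean of 0.318% ± 0.124 (SD, n = 3). For replicate 3 there was no other 1 Mb window with as many peaks, replicate 1 had 1 other with as many, and replicate 2 had 4 with more, up to 77. The choice of the window by regions of at least 2 replicates can lower the ratio of replicate 2 to the others by itself, and that was not tested. In the 4 next densest windows, picked by the same count, the ratio of replicate 2 to replicate 1 was 2.35 to 3.67.

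Of the window's peaks, 19 of 26 in replicate 1 overlapped both other lists (73.1%, 95% Wilson interval 53.9 to 86.3), against 69.1% of the whole list. In replicate 3 it was 19 of 35 (54.3%, 38.2 to 69.5), against 52.8%. In replicate 2 it was 19 of 65 (29.2%, 19.6 to 41.2), against 12.7%. The choice of a window with many regions of at least 2 replicates can raise this share by itself, and that was not tested. In the 4 next densest windows the replicate 2 share was 18.0% to 23.4%. There it was 42.3% to 85.7% in replicate 1 and 39.3% to 62.1% in replicate 3. The highest of these values in replicates 1 and 3, on chromosome 16, were above those of the chromosome 14 window. The intervals cover counting error only, and peaks of 1 window are not independent. Replicate 2 peaks overlapped 84.6% of the replicate 1 peaks and 74.3% of the replicate 3 peaks of the window, where the whole lists had 91.8% and 91.2%. Overlap with any other list was seen for 92.3%, 44.6% and 80.0% of the window's peaks in replicates 1, 2 and 3, against 94.3%, 25.7% and 93.2% of the lists.

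**Figure D4:**
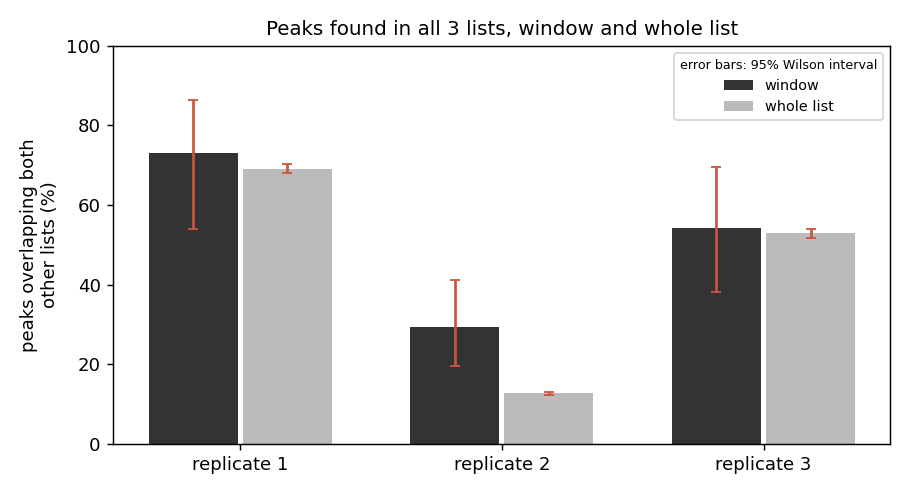
Share of peaks that overlap both other lists by at least 1 bp, in the window (dark bars) and in the whole list (light bars), with 95% Wilson intervals. The window bars of replicates 1 and 3 stand at 73.1% and 54.3% against 69.1% and 52.8%, and that of replicate 2 stands at 29.2% against 12.7%.

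Both regions held by replicates 1 and 3 alone had a replicate 2 peak close by. The first, at chr14:73138065-73138418, scored 97.8 in replicate 1 (rank 1054) and 57.7 in replicate 3 (rank 3811), and the nearest replicate 2 peak ended 948 bp before it. That replicate 2 peak, at chr14:73136717-73137116, scored 481 (rank 2272) and was the best-scored of the window's replicate 2 peaks that overlapped no other list. The second, at chr14:73735219-73735668, scored 74.2 in replicate 1 (rank 1685) and 69.2 in replicate 3 (rank 3084). Here the nearest replicate 2 peak lay 1052 bp away and belonged to the neighbouring region at 734 kb, with a score of 958 (rank 611). In the 7 regions that lacked replicate 1, its nearest peak was 1246 to 30646 bp away, and in the 3 that lacked replicate 3, the nearest replicate 3 peak was 5696 to 9098 bp away.

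Peaks seen in a single list made up 2 of 26 in replicate 1 (7.69%, 95% Wilson interval 2.14 to 24.1, against a background of 5.68%). They made up 36 of 65 in replicate 2 (55.4%, 43.3 to 66.8, against 74.3%) and 7 of 35 in replicate 3 (20.0%, 10.0 to 35.9, against 6.84%). The intervals cover counting error only, and peaks of 1 window are not independent. The share of peaks seen in a single list was lower than in the list for replicate 2 and higher for replicate 3. In replicate 1 these peaks ranked in the top 62.1% and 82.0%. In replicate 3 their median was in the top 85.2%, against 69.9% for such peaks of the whole list, and the best was at rank 1857 with a score of 100. In replicate 2 their median was in the top 51.5%, near the middle of the list, against 61.2% for such peaks of the whole list. Of the 36, 17 were in the upper 50% of the list (47.2%, against 36.4%) and 1 was in its best-ranked 10% (2.78%, against 1.85%). After the best-scored one, the next were at chr14:73165067-73165766 with a score of 248 and at chr14:73076067-73076416 with 239. Within 50 kb divided by 4 of a region of at least 2 replicates, centre to centre, lay 18 of the 36 (50.0%, against 25.3% of such peaks of the whole list), in a window picked for its many regions. In replicate 1 it was 0 of 2, against 60.8%, and in replicate 3 it was 2 of 7 (28.6%), against 47.7%.

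Joined at that same distance between centres, the 31 regions formed 9 groups of 2 or more regions, which held 20 of them, and 11 regions stood alone. Of all 31, 64.5% had a neighbour within that distance, against 36.1% of the genome's regions, and the median distance to the nearest region was 6.95 kb against 22.0 kb. At this distance no group was larger than 3 regions, and leaving out replicate 1, 2 or 3 gave 5, 5 and 4 groups. At 25 kb there were 9 groups with up to 7 regions and 4 single regions, and at 50 kb there were 5 groups with up to 9 regions and 1 single region. At 5 kb there were 6 groups of at most 2 regions and 19 single regions. The groups with 3 regions were neighbours in the third 100 kb. The first ran from 73221969 to 73235414, had all 3 replicates in each of its 3 regions, and included the second-ranked region of the window. The second ran from 73257069 to 73264914 and had all 3 replicates in 1 of its 3 regions, with best ranks of 3422, 3238 and 2535 in replicates 1, 2 and 3.

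Among pairs, 2 had all 3 replicates in both regions. The pair from 73084569 to 73089866 held the regions at 85 and 90 kb, and the pair from 73568565 to 73575964 held those at 569 and 576 kb. The strongest region of the window, at 153 kb, stood alone at this distance, with its nearest neighbouring region 12.6 kb away, just more than 50 kb divided by 4. The region at 208 kb also stood alone. Strong regions were thus found both within groups and on their own.

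The 4 next densest windows of the genome were on chromosomes 13, 16, 10 and 3, with 31, 30, 30 and 28 regions. The chromosome 14 window equalled the first of these in regions and had more regions of all 3 replicates, 19 against 11, 18, 13 and 14. Its neighbours lay further apart than in the chromosome 13 window, at a median of 20.2 kb against 6.72 kb. The distance was about the same on chromosomes 16 and 10, with 19.3 and 19.7 kb, and wider on chromosome 3, with 24.9 kb. The ratio of replicate 2 to replicate 1 peaks was 2.50, against 2.35, 3.67, 3.45 and 3.40. Median ranks of all peaks in the window were in the top 27.6%, 33.7% and 32.5% of the lists of replicates 1, 2 and 3. They were better on chromosome 13, with 16.2%, 30.9% and 18.8%, and on chromosome 3, with 21.0%, 24.9% and 30.8%. Of the replicate 1 peaks, 15.4% were in the best-ranked 10% of the list, against 30.8%, 14.3%, 15.0% and 30.0% on chromosomes 13, 16, 10 and 3. In replicate 2 the chromosome 14 window had the highest share, 23.1% against 11.5%, 16.9%, 15.9% and 19.1%. In replicate 3 it had 22.9%, against 28.6%, 20.7%, 15.4% and 14.3%. Medians above the middle of the list were seen in all 5 windows and in each replicate, so they are not particular to chromosome 14. The chromosome 14 window had 1 region in the Mb on both sides together, the fewest of the 5. The others had 5 and 4 on the 2 sides on chromosome 13, 6 and 7 on chromosome 16, 0 and 4 on chromosome 10, and 7 and 18 on chromosome 3. By distance, the nearest region before the first lay further away on chromosomes 13 and 10, at 1255 and 1108 kb. On chromosomes 14, 16 and 3 it lay 572, 137 and 90.3 kb away. After the last region, chromosome 14 had the longest distance, 1323 kb. On chromosomes 13, 16, 10 and 3 that distance was 326, 37.3, 125 and 66.6 kb. All 5 windows were picked by the same count, so these values are given side by side without a test.

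**Figure D5:**
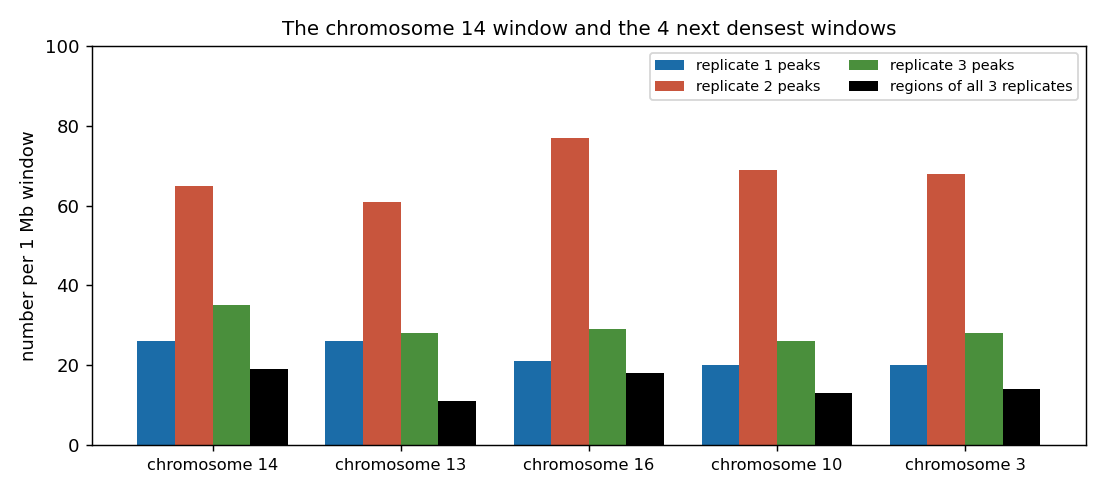
Peaks of each replicate and regions of all 3 replicates per 1 Mb window, for the chromosome 14 window (left) and the 4 next densest windows of the genome. The chromosome 14 window has the most replicate 3 peaks, 35, and the most regions of all 3 replicates, 19, while its 65 replicate 2 peaks are fewer than the 77 on chromosome 16.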

How the data were processed

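Peak lists of 3 HA-NUR77 ChIP-seq samples were analysed. The authors deposited 1 list per replicate with a position and a peak score, and a table of intervals in at least 2 of 3 replicates. Coordinates are of mm9, per the submitters' processing notes, and are printed 1-based. Peak names have the form MACS gives. Not given in the sources used here are the caller's version and threshold, the aligner and the way controls were used. Depth is unknown. Peak numbers have gaps: in the window 27.8%, 25.3% and 30.0% of the numbers of replicates 1, 2 and 3 were absent, against 39.1%, 19.7% and 38.8% over the lists. Rebuilt from the lists, all 69 table intervals in the window had the same borders, and their replicate names matched for 69 once the names of replicates 2 and 3 were exchanged (50 as written), so replicate numbers follow the sample titles.

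Ranks run from 1 for the best score, ties share their mean rank, and a rank in the top x% is the rank divided by the list length. Peaks were called shared at an overlap of at least 1 bp. Regions were named by the lowest mean rank, the 10 best in full, with every group of 3 or more and the 4 next densest windows. The members, lists and rules were chosen with earlier results of these data known. Motifs and gene positions were not examined, since no mm9 sequence or annotation was used. Overlap, joining and grouping were checked on simulated data. Tables were made with pandas 2.3.3 and numpy 2.4.6, intervals with scipy 1.17.1, and plots with matplotlib 3.10.9, in Python 3.11.15.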

Additional observations from a re-analysis of the deposited data

How the results depend on the processing

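With the higher-scored 50% of each list, the mean number of window peaks was 26.7 against 42 over all peaks, since fewer peaks enter, and there were 22 regions, 14 of them with all 3 replicates. Stricter overlap lowered the sharing. With 50% of both peaks required, 14 replicate 1 peaks matched both other lists, and 15 with centres within 100 bp, against 19 at 1 bp. The shares of replicates 1, 2 and 3 were then 53.8%, 21.5% and 45.7%, and 57.7%, 23.1% and 42.9%. At 1 bp they were 73.1%, 29.2% and 54.3%. On a grid shifted by 500 kb, the window from 73500001 to 74500000 held 10 regions and that from 72500001 to 73500000 held 21, by construction, as the regions then fall on both sides of a border. Ranked only among shared peaks, the mean of the median ranks was in the top 27.1%, and the cause of this shift was not tested. Groups of 2 or more regions numbered 9 at 50 kb divided by 4, 5 at 50 kb, where groups merge, and 3 among regions of all 3 replicates, where fewer regions enter. Leaving out each replicate gave 4 to 5 groups, 21 to 26 regions, a mean of 30.5 to 50 peaks, mean median ranks in the top 30.1% to 33.1%, and a rho between the scores of the remaining pair of 0.77 to 0.87, against a mean of 0.82. The number of groups thus fell with any replicate left out, lowest without replicate 3 at 4, with 5 without replicate 1 and 5 without replicate 2. Of 36 alternatives, 27 stayed within 1.5 times the count or 1 SD, where the SD is the spread between replicates or pairs of replicates. These limits are wide. The SD was 22.0 for the mean overlap share of 52.2%, and a fall from 31 to 21 regions counted as staying. The tally therefore does not show that the results are stable. The alternatives for the ratio of replicates 2 and 1 and for rho, and those that leave out a replicate for the peak number and ranks, were added after seeing the data. No paired analysis was possible because all samples belong to 1 group. Motif and gene context were not run. The unknown depth limits what an absent peak shows.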
